A study of Arabidopsis thaliana with 9 samples.

Results

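The core histone genes described here are the 32 Arabidopsis thaliana loci that encode histones H2A, H2B and H4, out of 27655 loci in the deposited table. They were chosen by annotation, with earlier results of these data known: 13 H2A genes (HTA1 to HTA13), 11 H2B genes (HTB1 to HTB11) and 8 H4 genes, which are named by locus. Transcript levels were measured by RNA-seq in whole seedlings grown for 10 days at 22 °C under 16 h of light and 8 h of dark. The 9 libraries were 3 of wild type (Col), 3 of the line h3.3ko;HTR5 G34R and 3 of the line h3.3ko;HTR5 G34W, shortened to G34R and G34W. Both lines share the h3.3ko background, and the labels place in it an HTR5 with a glycine near the start of the H3.3 protein exchanged for arginine or for tryptophan. With no h3.3ko line carrying an unaltered HTR5 among these libraries, the background and the substitution cannot be told apart. The labels do not say what drives the altered HTR5, how many independent lines or plants entered a library, or whether replicates were separate plantings, so the p-values reflect the spread among libraries, which may be technical.

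H2A and H2B pair as dimers that flank the core of H3 and H4 in each nucleosome. Replication-coupled histone genes are transcribed mainly in S phase, when new DNA has to be packed. H2A variants enter chromatin at particular places: H2A.X is phosphorylated at DNA breaks, H2A.W occupies heterochromatin, and H2A.Z is exchanged into nucleosomes at gene starts and over the bodies of responsive genes. In the comparison of classes, 18 genes counted as replication-coupled: HTA1, HTA2, HTA10 and HTA13, HTB1 to HTB4, HTB9 and HTB11, and all H4 genes. The 8 variant genes were HTA3 and HTA5 (H2A.X), HTA6, HTA7 and HTA12 (H2A.W), and HTA8, HTA9 and HTA11 (H2A.Z). HTA4, HTB5, HTB6, HTB7, HTB8 and HTB10 were kept apart from both sets.

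Plant histone promoters are known for short shared elements, so the 250 bases before each annotated start were searched on both strands for the octamer CGCGGATC, the hexamer ACGTCA and the E2F site in the forms TTTCCCGC, TTTGGCGC, TTTGCCGC and TTTCGCGC. The octamer was found before 5 of the 32 histone genes, against 37 of 27444 protein-coding genes of the table (0.135%). These 5 were HTA10, which holds 2 copies, HTA13, HTA6 and the H4 genes AT1G07660 and AT5G59690. The hexamer was found before 8 of the 11 H2B genes and before 0 of the 21 H2A and H4 genes, against 7.69% of all protein-coding genes. An E2F form was found before HTB2, AT3G45930 and AT3G46320, against 1.41% of all. No histone gene held both the octamer and the hexamer, and 17 held none of the 3 motifs. Absence holds for this window only, which depends on the annotated start. For HTA5, HTA7, HTA9, HTB4, HTB7, AT1G07820 and AT3G53730, all without a motif, the window reaches into a neighbouring gene. The stretches below are the 130 bases before the start of 4 genes with the octamer, then of 4 H2B genes with the hexamer, and last of HTA12 and the H4 gene AT2G28740, which hold none. They were read 5′ to 3′ on the coding strand from the RefSeq TAIR10.1 genome, and capitals mark the motif on either strand.
HTA10 (chr1:18926681-18926810, plus strand): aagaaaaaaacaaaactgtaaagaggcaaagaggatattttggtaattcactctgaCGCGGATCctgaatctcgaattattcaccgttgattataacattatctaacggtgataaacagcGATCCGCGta
HTA13 (chr3:7229260-7229389, plus strand): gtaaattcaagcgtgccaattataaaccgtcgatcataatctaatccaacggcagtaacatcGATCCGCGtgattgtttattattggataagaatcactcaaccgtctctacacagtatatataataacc
HTA6 (chr5:24116221-24116350, minus strand): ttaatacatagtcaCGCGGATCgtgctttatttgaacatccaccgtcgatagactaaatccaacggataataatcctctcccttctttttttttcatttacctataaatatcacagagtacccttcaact
AT5G59690 (chr5:24051344-24051473, plus strand): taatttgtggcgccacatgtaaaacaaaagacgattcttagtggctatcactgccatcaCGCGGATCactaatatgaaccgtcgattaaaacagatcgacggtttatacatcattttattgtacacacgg
HTB11 (chr3:16914132-16914261, minus strand): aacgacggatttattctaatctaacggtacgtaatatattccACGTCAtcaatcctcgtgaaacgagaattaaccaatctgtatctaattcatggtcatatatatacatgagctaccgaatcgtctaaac
HTB6 (chr3:19889167-19889296, plus strand): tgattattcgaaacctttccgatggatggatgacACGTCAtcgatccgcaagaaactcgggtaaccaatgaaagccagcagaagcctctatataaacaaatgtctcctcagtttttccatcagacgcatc
HTB3 (chr2:12326678-12326807, plus strand): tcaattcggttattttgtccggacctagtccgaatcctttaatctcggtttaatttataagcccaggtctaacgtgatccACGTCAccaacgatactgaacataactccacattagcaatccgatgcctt
HTB5 (chr2:15736597-15736726, plus strand): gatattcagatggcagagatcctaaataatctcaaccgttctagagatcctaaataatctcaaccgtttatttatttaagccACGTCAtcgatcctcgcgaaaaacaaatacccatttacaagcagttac
HTA12 (chr5:575095-575224, plus strand): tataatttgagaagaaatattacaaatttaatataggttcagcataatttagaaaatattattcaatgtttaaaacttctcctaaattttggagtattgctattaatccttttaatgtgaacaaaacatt
AT2G28740 (chr2:12330060-12330189, minus strand): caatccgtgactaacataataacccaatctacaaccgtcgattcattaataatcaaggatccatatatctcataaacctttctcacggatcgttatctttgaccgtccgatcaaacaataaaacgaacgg

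The deposited values are TPM, which divide a gene's reads by its length and scale every library to a sum of 1000000, and the whole reads recovered from them came to between 12889624 and 14730745 per library. At this depth 3 reads in a gene of 1 kb equal 0.422 to 0.495 TPM, which covers counting error only. The H3.3 genes were read first, of which the labels name only HTR5. HTR8, an H3.3 gene, fell by 5.16 in G34R and fell by 5.03 in G34W on the log2(TPM + 1) scale. HTR4, also an H3.3 gene, fell by 1.63 in G34R and fell by 1.39 in G34W. HTR5 rose by 0.10 and 0.19, but stood at -0.03 in both lines when libraries were scaled by median ratios. Replicates differed by more than sampling noise: chi-square per degree of freedom between libraries of a group was lowest at 1.74, within G34W, and highest at 5.31, between replicates 1 and 3 of G34R. The leaf markers CA1, PSAD1, PSBO1, RBCS1A and LHCB1.3 together gave 57483 to 66592 TPM over the libraries, and no library lacked any of them.

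In wild type the genes spanned a wide range of levels, compared here per length as reads per kb of exon, scaled to 1000000 reads in a library. The H4 gene AT5G59690 was highest at 121 ± 4.53 (SD, n = 3). Behind it came the H2B gene HTB9 at 106 ± 4.39, the H2A.Z gene HTA9 at 106 ± 5.80 and HTB4 at 101 ± 2.23. HTB9 overlapped HTA9, and HTA9 overlapped HTB4. Lower down stood HTB2 at 84.6 ± 2.37, HTB11 at 77.8 ± 3.41, HTA10 at 72.5 ± 2.80 and HTA6 at 63.4 ± 2.85, each separate from its neighbours in the order. The 14 genes from HTA2 at 45.1 ± 2.24 down to HTA3 at 24.7 ± 2.51 formed a chain in which each overlapped the next, although its ends were apart. At the foot were HTA12 at 5.89 ± 0.681, HTB6 at 4.30 ± 0.583 and HTB7 at 1.20 ± 0.227. HTB8, known as the seed H2B variant H2B.S, had 0 to 5 reads in each library, and HTB10 had 0 reads in all 9, each at or near the floor of 3 reads. HTB10 (chr5:576655-577176, minus strand) lies wholly inside the span of HTA12 on the other strand, where reads of the genes cannot be told apart if counting ignored strand. A gene with introns reads low in TPM here because TPM was made over spans that include introns, and all 13 H2A genes have introns whereas 0 of 11 H2B genes do.

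**Figure D1:**
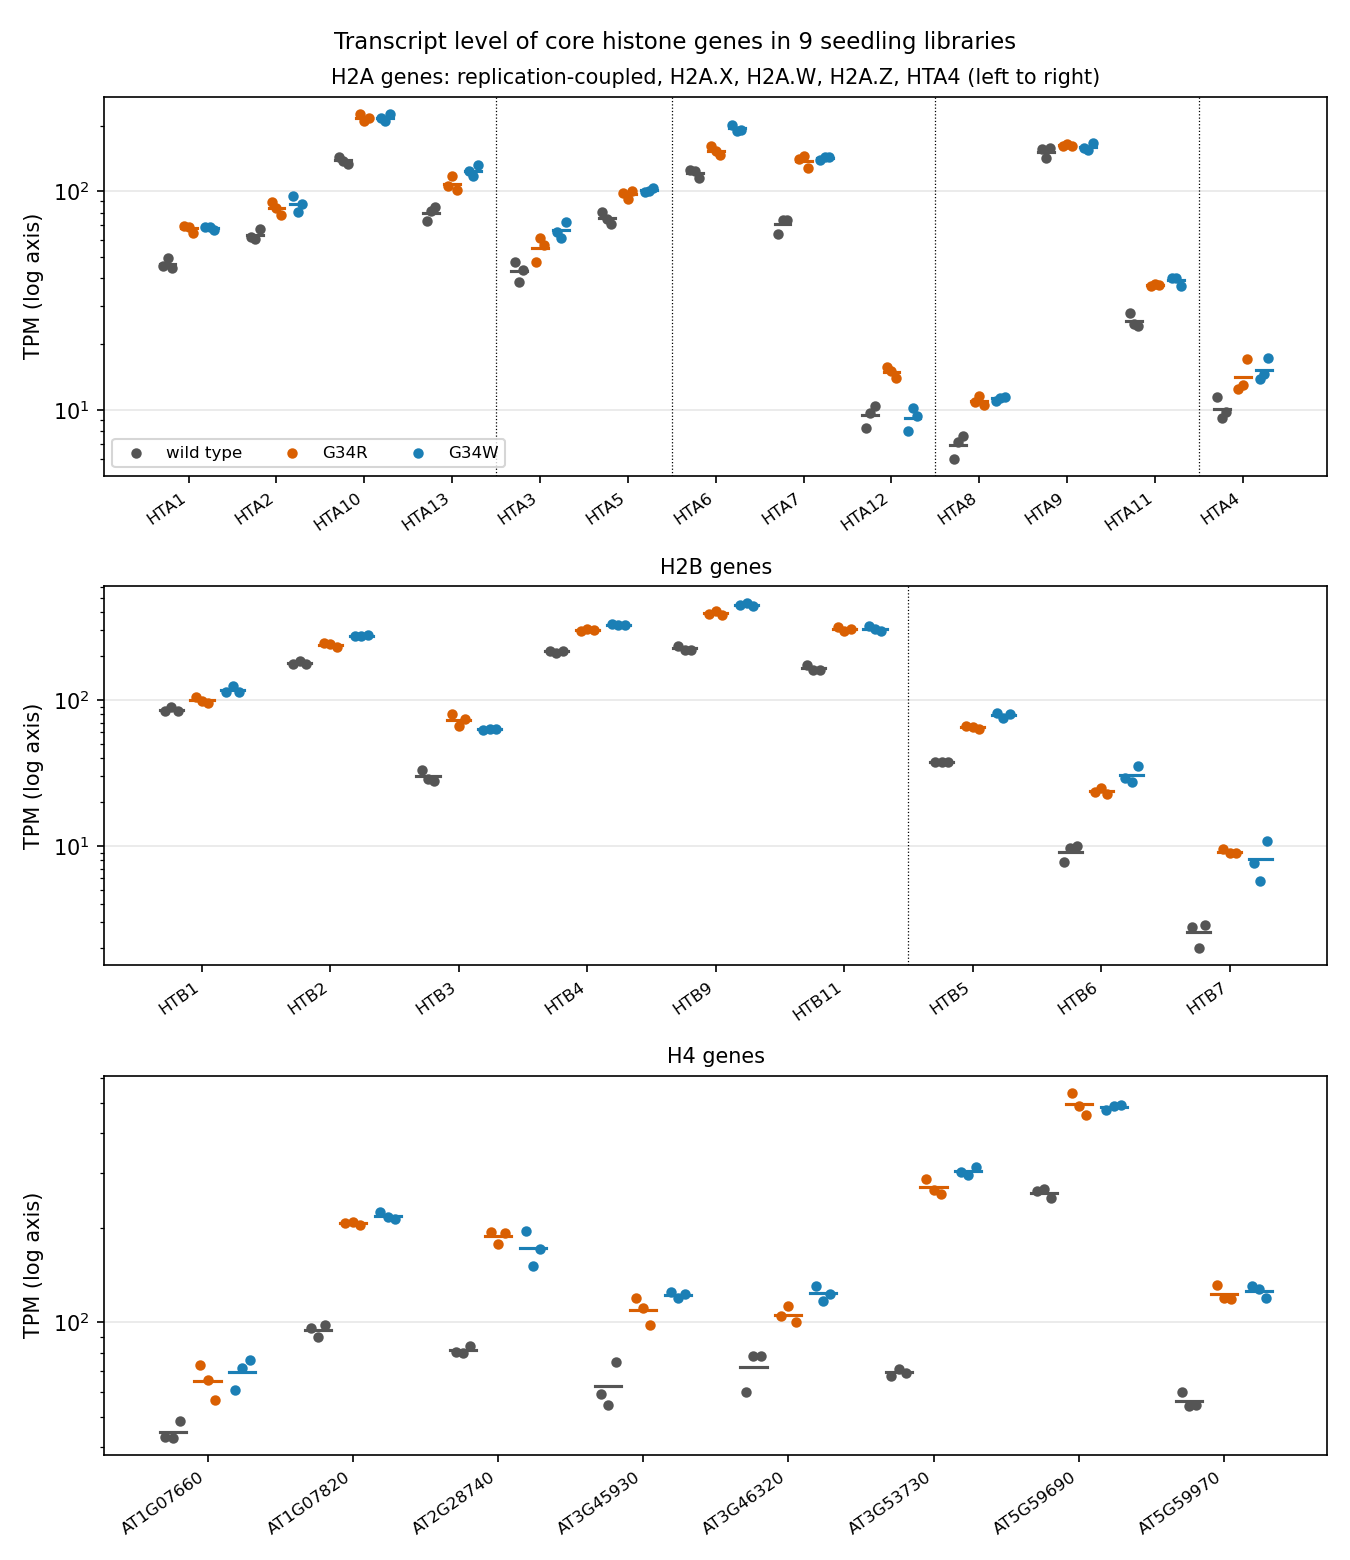
TPM (log axis) of the histone genes above 0 in all 9 libraries, with 1 point for each library and a bar at the mean of the 3 libraries of a group. Points of both lines lie above wild type for most genes, whereas HTA9 and, in G34W, HTA12 stay with wild type.

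Most core histone genes were higher in both lines than in wild type. Of the 30 genes that averaged 1 TPM or more over the libraries, 29 rose in G34R and 0 fell (limma, Benjamini-Hochberg adjusted p under 0.05 over 18544 genes), where 34.6% of all tested genes rose and 16.5% fell. In G34W 28 rose and 0 fell, where 44.8% of all tested genes rose and 13.1% fell. The median log2 fold change over the 30 genes was 0.61 in G34R and 0.66 in G34W, against 0.10 and 0.21 over all tested genes. Both comparisons use the same 3 wild-type libraries. HTA9 was called in neither line and HTA12 not in G34W. The 30 tested genes exclude HTB8 and HTB10.

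Scaling the libraries by median ratios, which centres the change over all genes, moved the median of all tested genes by -0.12 in G34R and -0.20 in G34W. With this scaling 27 histone genes rose in G34R, with HTB1 and HTA3 no longer called, beside 25.2% of all genes higher and 26.5% lower. In G34W the same scaling left 28 higher and called HTA9 lower, beside 24.3% higher and 24.3% lower. Leaving out any 1 library left 29 to 30 genes called in G34R and 28 in G34W. In bulk tissue, a larger share of cells that transcribe histone genes and more histone RNA per cell cannot be told apart.

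**Figure D2:**
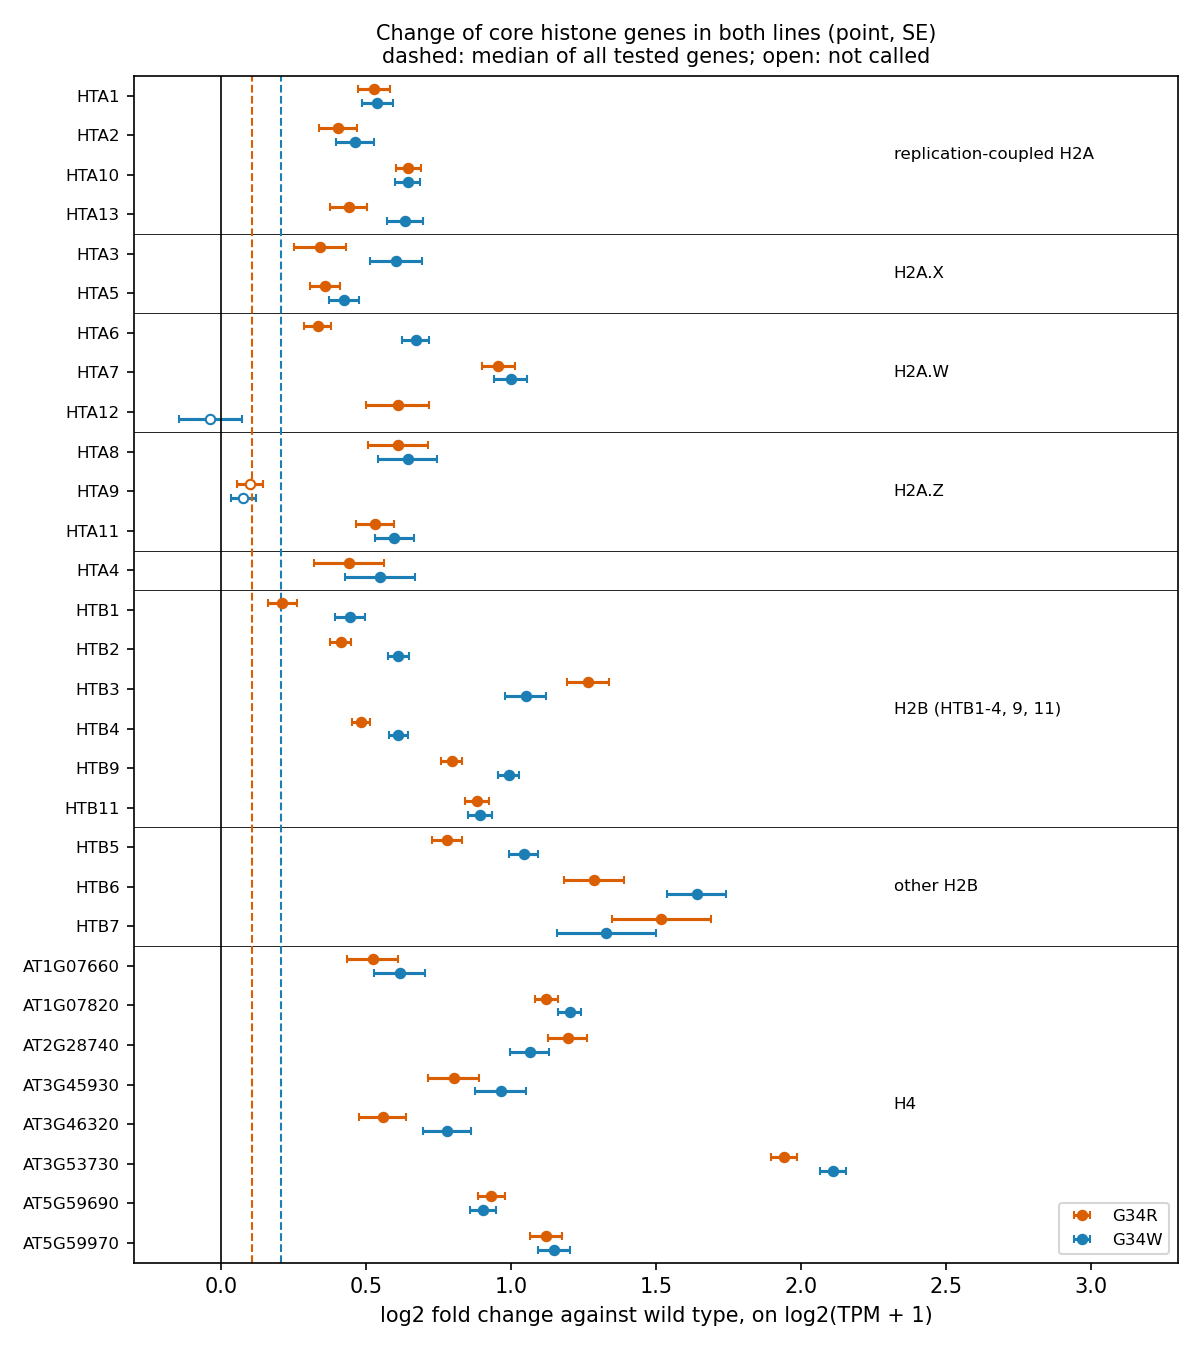
Log2 fold change against wild type on the log2(TPM + 1) scale, with SE, of the 30 tested histone genes in G34R and G34W. Filled points passed the test and open points did not; the dashed lines mark the median of all tested genes, 0.10 in G34R and 0.21 in G34W.

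Summed over all 32 genes, histone transcripts rose from 2516 to 2553 TPM in the wild-type libraries to 4107 to 4365 TPM in G34R and 4455 to 4561 TPM in G34W. The means were 1.67 and 1.78 times the wild-type mean. H4 transcripts gained most, at 2.11 and 2.19 times wild type, then H2B at 1.59 and 1.74 times and H2A at 1.38 and 1.47 times. Per kb of exon, where families can be set side by side, the wild-type order was H2A at 493 to 505, H2B at 440.1 to 456 and H4 at 347 to 360 reads, scaled as above. In G34R the same sums were 662 to 708 for H2A, 694 to 738 for H2B and 700.5 to 808 for H4, so that H4, the lowest family in wild type, was above H2B and H2A within each G34R library, while the ranges over libraries overlapped. In G34W, H2B at 759 to 781 and H4 at 741 to 773 overlapped, and H2A at 691 to 727 lay below both.

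**Figure D3:**
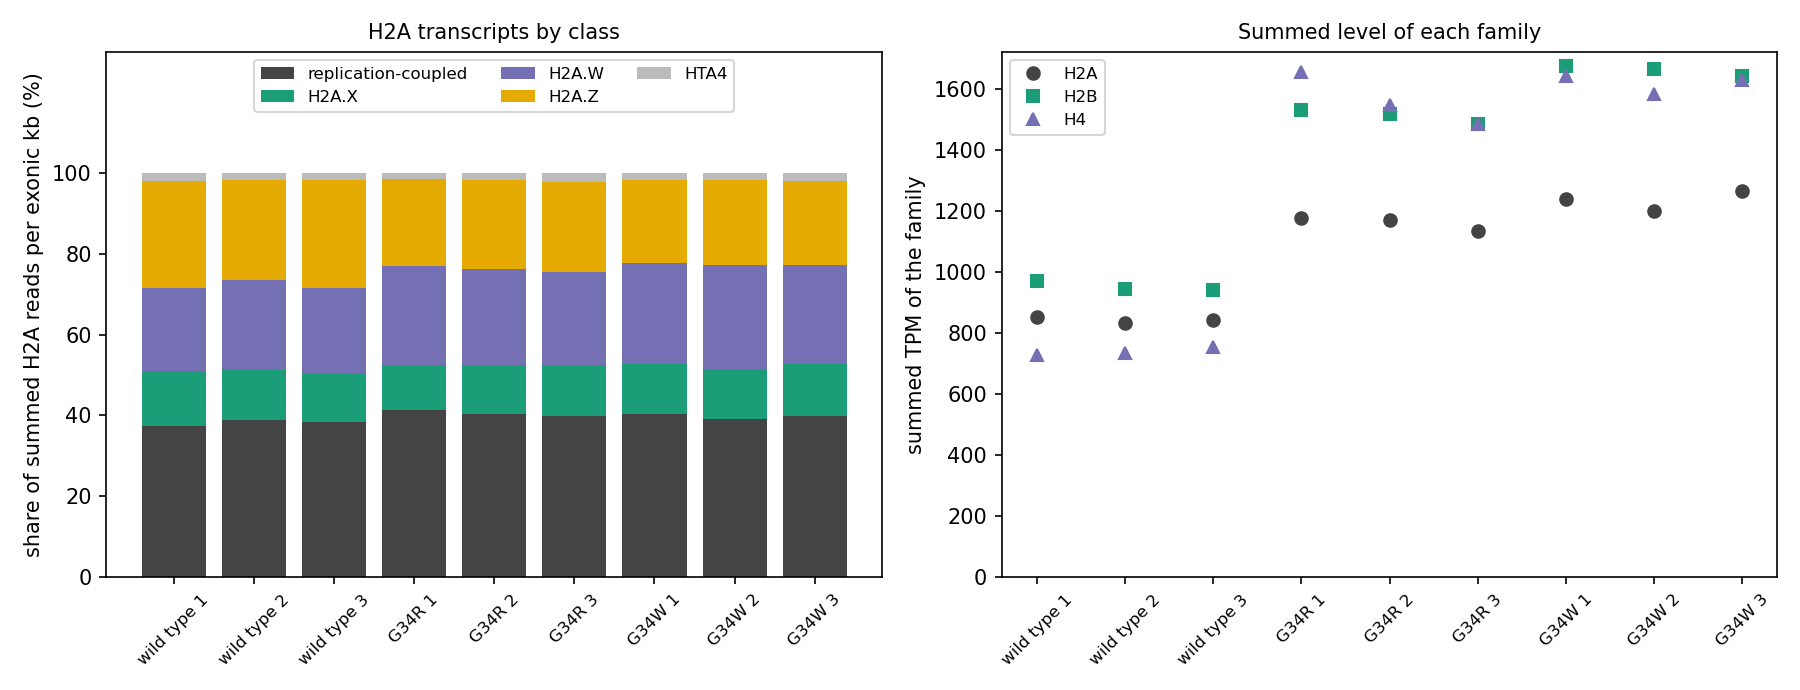
Left, share (%) of each H2A class in the summed H2A reads per kb of exon, with 1 bar for each library. Right, summed TPM of the H2A, H2B and H4 genes in each library; all 6 libraries of the lines lie above the 3 of wild type in each family, and H4 moves from the bottom to beside H2B.

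All 8 H4 genes rose in both lines. They encode the same H4 protein, and only the amount of transcript of each locus was measured here. The coding sequences of the 28 pairs were 78.8% to 98.1% identical, and 6 of the 8 genes share 50-base stretches with other places in the genome, up to 30.8% of the transcript. Reads of those 6 may have been exchanged among copies, whereas AT3G53730 and AT2G28740 share none.

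AT3G53730 (chr3:19912385-19913515, minus strand, 1 exon) changed most. It measured 67.6, 71.1 and 69.2 TPM in wild type, 287, 265 and 256 TPM in G34R, and 301, 294 and 312 TPM in G34W. Every library of the lines was well above every wild-type library. Its log2 fold change was 1.94 ± 0.04 (SE) in G34R, with adjusted p = 4.3e-15 by limma, and 2.11 ± 0.04 in G34W, with adjusted p = 2.1e-15. Its share of all H4 transcripts went from 9.22% in wild type to 17.0% in G34R and 18.5% in G34W.

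AT2G28740 stood at 80.4, 79.9 and 84.0 TPM in wild type, 194, 177 and 192 TPM in G34R, and 195, 151 and 171 TPM in G34W. The increase was 1.19 ± 0.07 in G34R and 1.06 ± 0.07 in G34W, and wild type did not overlap either line. AT5G59690, the most abundant H4 gene, had 263, 265 and 248 TPM in wild type, 539, 488 and 459 TPM in G34R, and 476, 488 and 491 TPM in G34W. Its change was 0.93 ± 0.05 in G34R and 0.90 ± 0.05 in G34W, and it remained the highest histone gene per kb of exon in all 3 groups.

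AT1G07820 went from a mean of 94.6 ± 4.35 TPM (SD, n = 3) in wild type to 207 TPM in G34R and 219 TPM in G34W, and AT5G59970 from 56.2 TPM to 123 and 126 TPM. Smaller increases were seen for AT1G07660, at 0.52 ± 0.09 and 0.61 ± 0.09 on the log2 scale. AT3G46320 rose by 0.56 ± 0.08 and 0.78 ± 0.08, and AT3G45930 by 0.80 ± 0.09 and 0.96 ± 0.09. These last genes are among those whose reads may be shared between copies.

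The 4 replication-coupled H2A genes rose in both lines. HTA10 had 144, 138 and 134 TPM in wild type, 226, 209 and 217 TPM in G34R, and 216, 209 and 226 TPM in G34W. The lines overlapped each other and not wild type, with log2 fold changes of 0.65 ± 0.04 and 0.64 ± 0.04 (adjusted p = 2.4e-09 in both, limma). HTA1, known as RAT5 for its part in T-DNA integration by Agrobacterium, rose by 0.53 ± 0.05 in G34R and by 0.54 ± 0.05 in G34W. HTA2 rose by 0.40 ± 0.07 and 0.46 ± 0.07, and HTA13 by 0.44 ± 0.06 and 0.63 ± 0.06.

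Both H2A.X genes rose in both lines. HTA3 had 47.6, 38.7 and 43.9 TPM in wild type and 47.7, 61.3 and 57.0 TPM in G34R, where the first G34R library nearly touched wild type. In G34W it had 65.1, 61.5 and 72.5 TPM. The changes of HTA3 were 0.34 ± 0.09 and 0.60 ± 0.09. HTA5, the other H2A.X gene, went from 75.4 ± 4.86 TPM (SD, n = 3) to 96.9 ± 4.25 TPM in G34R and 101 ± 2.25 TPM in G34W.

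The 3 H2A.W genes did not move alike. HTA7, whose protein is the H2A.W phosphorylated by the ATM kinase in the DNA damage response, had 63.9, 73.9 and 74.2 TPM in wild type, 141, 145 and 129 TPM in G34R, and 138, 144 and 144 TPM in G34W. All 6 libraries of the lines stood far above wild type, a change of 0.96 ± 0.06 in G34R and 1.0 ± 0.06 in G34W that was larger than that of any other tested H2A gene in either line. HTA6 had 125, 124 and 116 TPM in wild type, 161, 153 and 146 TPM in G34R, and 202, 189 and 191 TPM in G34W, so that the 3 groups were in 3 separate ranges.

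HTA12 (chr5:575225-577216, plus strand) differed more between the lines than any other tested histone gene. It measured 8.30, 9.70 and 10.5 TPM in wild type, 15.8, 15.0 and 14.1 TPM in G34R, and 8.06, 10.2 and 9.36 TPM in G34W. G34R lay above both other groups, which overlapped. The change was 0.61 ± 0.11 in G34R (adjusted p = 0.000188) and -0.04 ± 0.11 in G34W (adjusted p = 0.78), and G34W was lower than G34R by a log2 fold change of -0.65 ± 0.11 (adjusted p = 0.000239, all limma). These values rest on 103 to 223 reads in each library.

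Of the H2A.Z genes, HTA9 (chr1:19645236-19646485, plus strand), the most abundant, hardly moved. It had 156, 142 and 157 TPM in wild type, 161, 164 and 162 TPM in G34R, and 158, 155 and 166 TPM in G34W. The G34R libraries lay just above wild type and the G34W libraries overlapped it, with changes of 0.10 ± 0.04 (adjusted p = 0.0692) and 0.08 ± 0.04 (adjusted p = 0.148) by limma. The sign of this change depended on the scaling, since with median ratios it was -0.03 in G34R and -0.14 in G34W (adjusted p = 0.0169). Leaving out wild-type replicate 3 brought HTA9 in G34R to 0.13 (adjusted p = 0.046). HTA9 overlaps a gene on the other strand, as do HTA3, HTA4, HTA13 and HTB9, so that the same doubt about strand applies to these genes as to HTA12 and HTB10.

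Both other H2A.Z genes rose in both lines. HTA11 had 27.9, 24.7 and 24.3 TPM in wild type, 37.1, 37.8 and 37.3 TPM in G34R, and 40.4, 40.3 and 37.1 TPM in G34W, without overlap between wild type and the lines. Its change was 0.53 ± 0.07 and 0.60 ± 0.07. HTA8 went from 6.92 ± 0.812 TPM (SD, n = 3) to 11 TPM in G34R and 11.3 TPM in G34W.

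These changes altered the make-up of the H2A transcripts. Per kb of exon, H2A.Z fell from 26.0% ± 0.946 (SD, n = 3) of the H2A sum in wild type to 21.9% ± 0.408 in G34R and 20.7% ± 0.242 in G34W, and the ranges of wild type and the lines did not overlap. H2A.W took 21.3% ± 0.825 in wild type, 23.7% ± 0.757 in G34R and 25.1% ± 0.605 in G34W, also without overlap. Replication-coupled H2A took 38.2% ± 0.776, 40.5% ± 0.729 and 39.8% ± 0.639, and H2A.X 12.7% ± 0.733, 11.9% ± 0.697 and 12.5% ± 0.324, where the ranges of H2A.X overlapped. HTA9 alone fell from 21.1% to 16.6% and 15.4% of the H2A sum. The class shares were compared by their ranges only, no share was tested, and shares of one sum are not independent of each other.

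The 9 tested H2B genes rose in both lines, with the largest changes in HTB7, HTB6 and HTB3, which are among the least abundant of them. HTB7 had 2.81, 2.0 and 2.88 TPM in wild type, 9.49, 8.95 and 9.01 TPM in G34R, and 7.68, 5.80 and 10.9 TPM in G34W. The change of 1.52 ± 0.17 and 1.33 ± 0.17 rests on 9 to 14 reads in each wild-type library. HTB6 had 7.73, 9.68 and 10.1 TPM in wild type, 23.3, 25 and 22.7 TPM in G34R, and 29.2, 27.5 and 35.2 TPM in G34W. Its log2 fold changes were 1.29 ± 0.10 and 1.64 ± 0.10, with 46 to 63 reads in each wild-type library.

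HTB3 had 33.4, 28.9 and 27.9 TPM in wild type, 79.9, 66.9 and 74.1 TPM in G34R, and 62.2, 63.9 and 63.2 TPM in G34W, a change of 1.27 ± 0.07 and 1.05 ± 0.07. All of its G34R libraries were above its G34W libraries. HTB5 went the other way between the lines, at 37.7, 37.7 and 37.8 TPM in wild type, 66.6, 65.9 and 63.8 TPM in G34R, and 81.1, 74.9 and 80.4 TPM in G34W. HTB9, the most abundant H2B gene per kb of exon, went from 226 ± 9.21 TPM (SD, n = 3) to 392 TPM in G34R and 449.6 TPM in G34W.

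HTB11 rose by 0.88 ± 0.04 in G34R and by 0.89 ± 0.04 in G34W. HTB4 rose by 0.48 ± 0.03 and 0.61 ± 0.03, and HTB2, used as a fluorescent chromatin marker in fusions, by 0.41 ± 0.04 and 0.61 ± 0.04. HTB1 changed least among the 9 tested H2B genes, from 84.5, 89.0 and 84.6 TPM to 105, 98.6 and 95.6 TPM in G34R and 114, 125 and 113 TPM in G34W. Its change of 0.21 ± 0.05 in G34R passed the test on TPM but not with median ratios, where it was 0.08 (adjusted p = 0.248, limma). HTA4, the H2A gene kept apart, rose by 0.44 ± 0.12 and 0.55 ± 0.12.

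Set against each other, the 18 replication-coupled genes changed more at the median than the 8 variant genes. The medians were 0.72 and 0.44 in G34R, and 0.84 and 0.60 in G34W. In each library, the median log2(TPM + 1) of the replication-coupled genes, taken relative to each gene's wild-type mean, minus that of the variants was 0.28, 0.22 and 0.18 in the G34R libraries and 0.27, 0.22 and 0.22 in those of G34W. The wild-type libraries gave -0.06, -0.04 and -0.05. No library of the lines overlapped wild type, but the wild-type libraries also set the baseline, so their own spread is understated. Leaving out 1 library at a time gave a difference between line and wild type of 0.19 to 0.28 in G34R and 0.18 to 0.31 in G34W. Within H2A the sets were not ordered in this way: the 4 replication-coupled genes had medians of 0.48 and 0.59 in G34R and G34W, the H2A.W genes 0.61 and 0.67, the H2A.Z genes 0.53 and 0.60, and the H2A.X genes 0.35 and 0.51. H4 genes had medians of 1.03 and 1.01, and the 6 H2B genes of the replication-coupled set 0.64 and 0.75. All of these are medians of few genes and carry no test.

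Between the lines, fewer histone genes differed. In G34W against G34R, 11 of the 30 genes were higher and 2 lower, beside 21.5% and 11.8% of all tested genes, and the median of the 30 was 0.07, against 0.07 over all tested genes. The 11 were HTB1, HTB2, HTB4, HTB5, HTB6, HTB9, HTA3, HTA6, HTA13, AT3G46320 and AT3G53730, with log2 differences of 0.13 to 0.35. HTA6 was called with the smallest adjusted p, at 0.34 ± 0.05 (adjusted p = 3.1e-05, limma), and the 2 lower genes were HTA12 and HTB3, the latter at -0.22 ± 0.07 (adjusted p = 0.0284). With median ratios 5 calls were made, beside 13.4% of all genes higher and 17.5% lower: HTB5 and HTA6 higher, and HTA12, HTB3 and AT2G28740 lower. Without G34W replicate 3 the count on TPM was 8, with HTA3, HTA13, HTB3, HTB6 and AT3G46320 no longer called. HTB3 was also lost without any other library of G34W or without replicate 1 or 3 of G34R, where its adjusted p was 0.056 to 0.134. HTA13 and AT3G46320 were also lost without replicate 1 or 3 of G34R or replicate 1 of G34W, and HTA3 without replicate 1 of either line. AT2G28740 became lower in G34W, by -0.22 (adjusted p = 0.00957, limma), without G34W replicate 1.

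Genes that hold a motif can be set beside those that do not. The 5 genes with the octamer had a median of 0.52 in G34R and 0.64 in G34W, and the 25 tested genes without it 0.61 and 0.78. The 7 tested genes with the hexamer had medians of 0.79 and 0.99, and the 23 without it 0.56 and 0.64. All 7 are H2B genes. The only tested H2B genes without it were HTB4, at 0.48 and 0.61, and HTB7, at 1.52 and 1.33. These are too few to tell the motif from the family. HTA12 and AT2G28740, whose stretches hold no motif, were at 0.61 and 1.19 in G34R and at -0.04 and 1.06 in G34W.

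In position, 14 of the 32 genes lay within 25 kb of another in TAIR10.1. HTB3 and AT2G28740 lie 1.54 kb apart, and both rose by more than 1 on the log2 scale in both lines, although with median ratios they were at 0.83 and 0.84 in G34W. HTB6 and AT3G53730 lie 22.1 kb apart and also rose by more than 1 in both. HTB1 and AT1G07820 lie 7.30 kb apart, yet changed by 0.21 and 1.12 in G34R and by 0.44 and 1.20 in G34W. HTB4 lies 10.7 kb from HTA6 and 17.7 kb from AT5G59970. These 3 changed by 0.48, 0.33 and 1.12 in G34R and by 0.61, 0.67 and 1.15 in G34W. HTB9 lies 13.3 kb from AT3G45930 and 15.4 kb from HTB11. These 3 changed by 0.79, 0.80 and 0.88 in G34R and by 0.99, 0.96 and 0.89 in G34W. HTA12 and HTB10 overlap, and HTB10 was not tested. In all, 7 histone genes exceeded a log2 fold change of 1 with an adjusted p under 0.05 in G34R and 8 did in G34W, beside 4.97% and 3.87% of all tested genes. With median ratios 5 did in G34R and 3 in G34W, beside 3.9% and 2.14%.

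Other genes of the same processes were read as lists beside the histone genes. The counts of each list below are to be read beside the shares of all tested genes. In G34R 34.6% of all rose and 16.5% fell, and in G34W 44.8% rose and 13.1% fell. With median ratios 25.2% rose and 26.5% fell in G34R, and 24.3% rose and 24.3% fell in G34W. The 5 genes for H3.1, the form of H3 laid down at replication, rose in both lines, with medians of 0.44 in G34R and 0.88 in G34W. HTR2 rose by 0.76 ± 0.05 and 0.88 ± 0.05 and HTR13 by 0.44 ± 0.07 and 0.94 ± 0.07, and HTR1 by 0.38 ± 0.05 and 0.74 ± 0.05.

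Most S-phase genes passed no test in G34R and rose in G34W. Of 16 genes for DNA replication and its licensing, 2 rose and 0 fell in G34R (median -0.07), whereas 12 rose and 1 fell in G34W (median 0.42). The 2 were MSI1, a subunit of the CAF-1 chaperone, at 0.27 ± 0.06, and PCNA2, at 0.24 ± 0.08, and neither was called with median ratios, under which 6 of the 16 fell. PCNA1, the sliding clamp of DNA polymerase, was at -0.07 ± 0.11 in G34R (adjusted p = 0.579, limma) and rose by 0.70 ± 0.11 in G34W (adjusted p = 3.0e-05). TSO2, a ribonucleotide reductase subunit, was at -0.06 ± 0.07 and rose by 0.37 ± 0.07. The 1 gene that fell in G34W was CDC6, at -0.61 ± 0.16. With median ratios, 5 rose and 1 fell in G34W. Tested directly, 11 of the 16 were higher in G34W than in G34R and 0 lower, beside 21.5% and 11.8% of all tested genes. By median ratios 8 were higher, beside 13.4% of all. PCNA2, CDC6 and the other list genes outside the naming rule were named after their values were seen.

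Of 7 G2-M and mitosis genes, 3 rose in G34R and 7 in G34W, or 2 and 5 with median ratios. CDKB1;1, a plant mitotic kinase, rose by 0.89 ± 0.14 in both lines, and the other 2 in G34R were AUR1, at 0.37 ± 0.11, and CYCB1;1, at 0.54 ± 0.16. CDKB2;1 was at 0.19 ± 0.08 in G34R (adjusted p = 0.0777) and rose by 0.54 ± 0.08 in G34W, and CDC20.1, an activator of the anaphase-promoting complex, was at 0.09 ± 0.08 and rose by 0.47 ± 0.08. Of 5 endoreduplication genes, the CDK inhibitor SIM rose in both lines, by 0.56 ± 0.19 and 0.52 ± 0.19, though not with median ratios, and SMR1 fell in G34W by 0.75 ± 0.20.

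**Figure D4:**
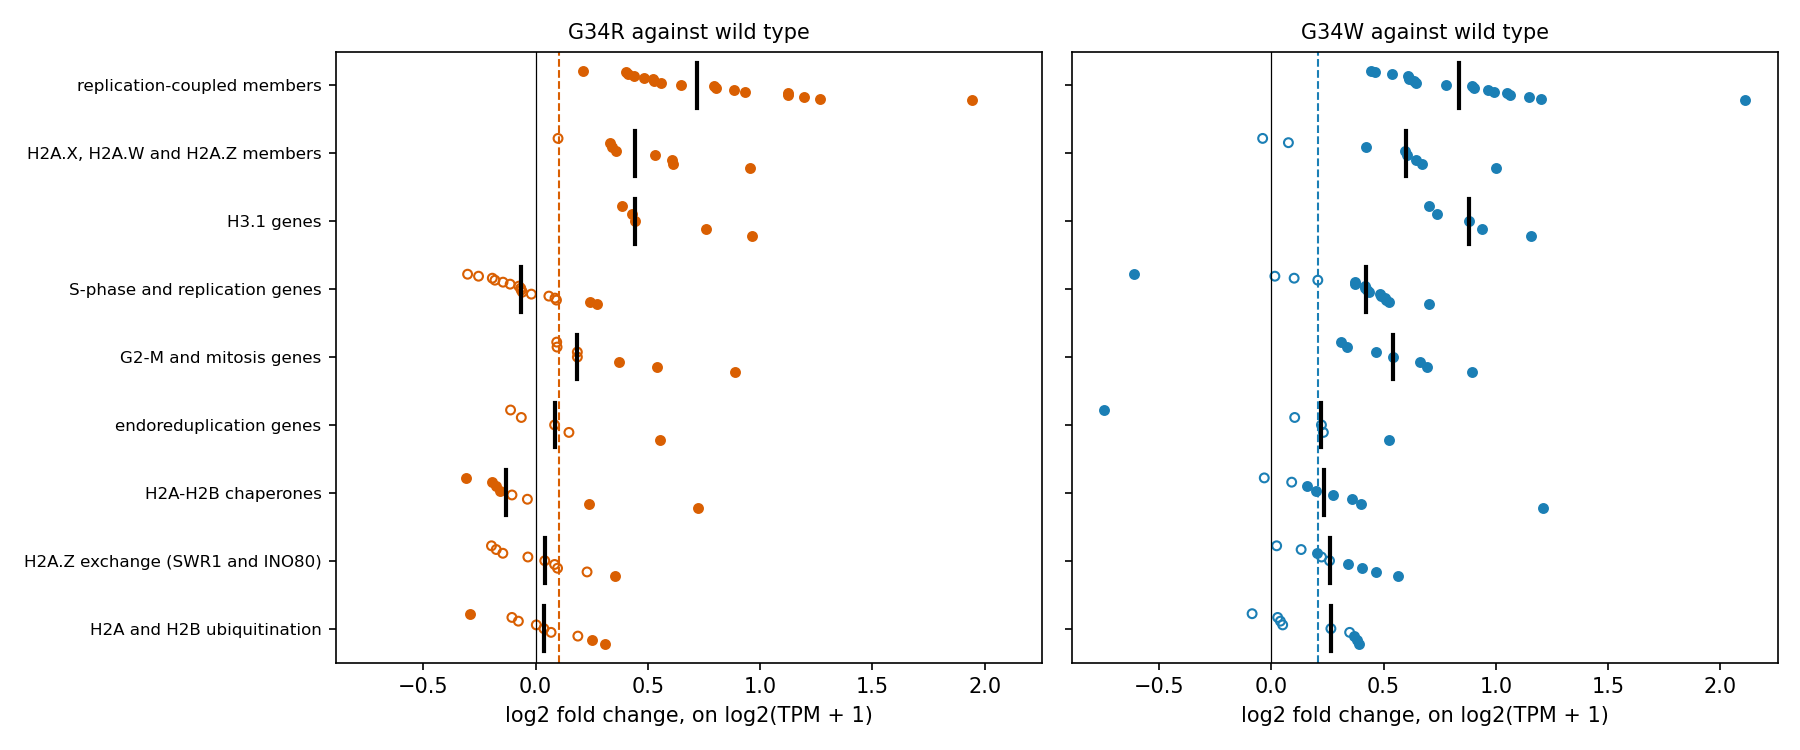
Log2 fold change against wild type (log2(TPM + 1) scale) of the histone genes and of lists of related genes, with 1 point for each gene, filled where it passed the test, and a black bar at the median. The dashed line is the median of all tested genes; in G34R the S-phase genes sit around -0.07 while the replication-coupled histone genes sit around 0.72.

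Chaperone genes were split in G34R. Of 8 chaperone genes for H2A-H2B dimers, 2 rose and 4 fell in G34R, and 6 rose and 0 fell in G34W. NAP1;1 and NAP1;2, nucleosome assembly proteins, were at -0.11 ± 0.05 and -0.04 ± 0.04 in G34R and rose by 0.36 ± 0.05 and 0.40 ± 0.04 in G34W. NAP1;4 rose in both lines, by 0.72 ± 0.20 and 1.21 ± 0.20, and SSRP1, a FACT subunit, was the other to rise in G34R, at 0.24 ± 0.06. The 4 that fell in G34R were NRP2, NRP1, SPT16 and NAP1;3, at -0.31, -0.16, -0.20 and -0.18. With median ratios, the counts were 1 higher and 6 lower in G34R, and 3 higher and 1 lower in G34W.

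Of 9 genes of the SWR1 and INO80 complexes, which exchange H2A.Z, 1 rose in G34R and 5 in G34W, and 0 fell. Of all tested genes, 34.6% rose in G34R and 44.8% in G34W. With median ratios 2 of the 9 fell in G34R, beside 26.5% of all, and 2 rose in G34W, beside 24.3%. SEF, an SWR1 subunit, rose by 0.35 ± 0.14 and 0.56 ± 0.14, and ARP6 was at -0.03 ± 0.07 in G34R and rose by 0.47 ± 0.07 in G34W. Of the H2A.X kinases ATM and ATR and the remodeller DDM1, which deposits H2A.W, only DDM1 in G34W passed the test, at 0.35 ± 0.11, and it did not with median ratios. Beside the same shares of all genes, 2 of 9 genes that add or remove ubiquitin on H2A and H2B rose in G34R and 3 in G34W. Only UBP26, which removes ubiquitin from H2B, fell, in G34R. With median ratios 1 of the 9 rose and 1 fell in each line. UBC1 and UBC2, E2 enzymes for H2B, rose by 0.31 ± 0.04 and 0.25 ± 0.06 in G34R and by 0.39 ± 0.04 and 0.37 ± 0.06 in G34W.

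Root markers rose beside the histone genes and most leaf markers fell. The 5 root markers, CASP1, PRP3, IRT1, EXP7 and RHD6, rose in both lines, except that with median ratios RHD6 was not called in G34W, and their summed level went from 52.2 to 53.5 TPM in wild type to 209.8 to 226 TPM in G34R and 130 to 138 TPM in G34W. IRT1, the root iron transporter, rose by 2.37 ± 0.05 in G34R and by 1.3 ± 0.05 in G34W. The leaf markers summed to 65301 to 66592 TPM in wild type, 57483 to 63068 TPM in G34R and 60133 to 61866 TPM in G34W, with 3 of 5 lower in G34R and 4 of 5 lower and 1 higher in G34W, and with median ratios 5 of 5 lower in both. The 7 meristem markers summed to 15.6 to 17.9 TPM in wild type, 11.3 to 13.8 TPM in G34R and 9.59 to 10.6 TPM in G34W, and 2 of them passed the filter. KNAT1, a meristem homeobox gene, fell by 0.56 ± 0.10 and by 0.99 ± 0.10 and made up most of these sums. STM, the other, was called in neither line, with means of 1.73 (wild type), 1.42 (G34R) and 2.33 TPM (G34W). WUS, CLV3, PLT1, PLT2 and WOX5 each averaged under 1 TPM over the libraries, and not all of them fell with the sum. In G34R, PLT1 was at 0.303 to 0.454 TPM against 0.0494 to 0.152 TPM in wild type. PLT2 was at 0.300 to 0.491 TPM there against 0.0466 to 0.177 TPM, and CLV3 at 0.172 to 0.181 TPM against 0. WUS and WOX5 in G34R, and each of these genes in G34W, overlapped wild type. All of these levels are near the floor. Of 6 flower, pollen and seed markers 1 passed the filter, the seed storage gene CRA1, at 0.157 to 0.535 TPM in wild type, 17.8 to 21.4 TPM in G34R and 3.20 to 4.14 TPM in G34W. The part of these tissue markers in the histone result was not tested.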

How the data were processed

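Whole seedlings were measured in 9 libraries, grouped by their labels. The values are TPM as deposited by the authors. Each column sums to 1000000. TAIR10, DESeq2 1.26.0, HISAT2 2.1.10 and fastp 0.20.1 are named in the submitters' processing notes. Which tool counted the reads, and whether by strand, is not given in the sources used here. Reads were recovered as TPM times the gene span in RefSeq TAIR10.1, introns included, which gave whole reads within 0.01 for 23088 of 23235 genes above 0 in a library (99.4%). The table holds no coordinates, and all coordinates and sequences come from TAIR10.1. The 18544 genes averaging 1 TPM or more over the libraries entered limma 3.58.1 (R 4.3.3) as log2(TPM + 1), in 1 model over 3 groups with a variance trend, two-sided, Benjamini-Hochberg at 0.05, which understates changes of low genes. The procedure was also run on simulated reads with a fixed spread between replicates and few changed genes. Those settings differ from these data, so no conclusion is drawn from that run. All 32 members were named; of each list up to 3 called genes of smallest adjusted p, and HTR4, HTR5 and HTR8. The members, classes and lists were chosen with earlier results of these data known. Alternatives were median-ratio scaling, a pseudocount of 0.1, no filter, a replicate block and leaving out each library.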

Additional observations from a re-analysis of the deposited data

How the results depend on the processing

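With a pseudocount of 0.1, without the filter or with a replicate block, the counts of histone genes and of all genes called stayed within 1.5 times. Without the filter 4 calls on histone genes were lost, and with the pseudocount of 0.1 1 call was lost. Correlations of deviations from group means were -0.02 to 0.04 between libraries of the same number and -0.06 to 0.03 between those of different numbers. Values this small cannot show whether replicate numbers pair the libraries. The replicate block gave 29, 28 and 13 histone genes called in G34R, G34W and between the lines. It gave 9569, 10747 and 6238 genes in all, and changed 0 of 90 calls on histone genes. With median-ratio scaling 5 histone genes were called between the lines, of which 4 were among the 13 called on TPM. It turned the sign of HTA9 to -0.030 in G34R and -0.14 in G34W, and, between the lines, of AT1G07820 to -0.011, HTA5 to -0.025, HTA8 to -0.049, HTB11 to -0.082, HTA11 to -0.022, HTA2 to -0.030, HTA7 to -0.049, HTA1 to -0.078 and AT5G59970 to -0.063. Leaving out 1 library at a time gave 8 to 13 histone genes between the lines, and differences between replication-coupled genes and variants of 0.19 to 0.28 in G34R and 0.18 to 0.31 in G34W. It also turned signs near 0, of HTA12 in G34W (-0.12 to 0.046) and, between the lines, of AT1G07660 (-0.0014 to 0.18), HTA10 (-0.032 to 0.028), HTB7 (-0.40 to 0.0039), HTB11 (-0.027 to 0.036), HTA2 (-0.0046 to 0.12), HTA7 (-0.0081 to 0.077), HTA1 (-0.024 to 0.033) and AT5G59690 (-0.081 to 0.035). The cause was not tested. Depth limits HTB7, with 9 reads in one wild-type library, and HTB8 and HTB10, at or near 0 reads.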
